A study of Mus musculus with 10 samples.

Results

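The NFAT transcription factor family (Nfatc1, Nfatc2, Nfatc3, Nfatc4 and Nfat5) was read by 23 probe sets of 45101 in cells of murine T-ALL, acute leukemia of immature T cells. Members were all probe sets that the platform annotation gives to one of these 5 symbols and to no other gene. That rule used no measured values, but the family was chosen with earlier results of these data known. Nfatc1 had 5, Nfatc2 6, Nfatc3 2, Nfatc4 4 and Nfat5 6 probe sets, and each was analysed on its own. ICN1, an activated form of NOTCH1, had induced the leukemias, and every sample carried a ROSCreERT2 transgene, which gives tamoxifen-inducible Cre recombinase, and 2 floxed copies of CnB1. CnB1, now named Ppp3r1, encodes the regulatory B subunit of the phosphatase calcineurin. Leukemic secondary recipient mice received tamoxifen (TAM, 5 arrays), which deletes CnB1, or the corn oil carrier (OIL, 5 arrays), which leaves it in place. Both groups hold one array each of 5 labels, which are 204, 206, F3.1, F3.2 and F3. Whether each array is a separate mouse or leukemia is not given by the labels, so p-values measure the spread between these samples only. There was no group that received tamoxifen without floxed CnB1, so tamoxifen with Cre and loss of CnB1 cannot be told apart, and in bulk RNA fewer cells of a type and less RNA per cell cannot be told apart either.

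NFATc1 to NFATc4 wait in the cytoplasm in a phosphorylated form. A rise in calcium activates calcineurin, which removes these phosphates, and the proteins enter the nucleus, where they bind DNA with the core GGAAA, often beside AP-1. Kinases such as GSK3, DYRK and casein kinase 1 send them out again. NFAT5 shares the DNA-binding region but not the calcineurin docking region, and it responds to hypertonic stress. In T cells the family drives cytokine and activation genes, and NFATc1 to NFATc3 act in thymocyte development. The arrays measured transcripts, so they show the amounts of NFAT messenger RNA and not the phosphorylation or position of the proteins.

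Values are log2 expression values, in which a difference of 1 is a doubling. Of the measured T lineage markers, 11 of 11, with Cd3d the brightest, had means above the dim limit of 4.04, the 30th percentile of all probe-set means. Of marrow lineages outside T cells, 5 of 7 B cell markers, 10 of 10 myeloid, 6 of 7 erythroid and megakaryocyte and 5 of 8 stromal and endothelial markers were above that limit. The limit is below the array medians of 5.07 to 5.13, so passing it does not show that such cells were present. The T lineage means ran from 8.73 to 12.78. The brightest markers of the other lists, in the same order, were Pax5 at 5.19, S100a8 at 7.68, Itga2b at 6.32 and Pecam1 at 6.73. The log2 of the summed myeloid markers ranged from 8.19 to 10.25 in OIL and from 8.64 to 11.09 in TAM. That of the stromal and endothelial markers was 9.84 in OIL 206 and 10.57 in TAM 206, against 8.32 to 8.63 on the other arrays. That of the B cell markers ranged from 7.24 to 7.49 in OIL and from 7.09 to 7.23 in TAM. The groups barely separated, at 7.241 for the lowest OIL array and 7.233 for the highest TAM array. The means of these genes were low, at 3.59 to 5.19, and none of the 7 passed in either fit. All 7 were lower in TAM, 3 of them at an unadjusted limma p under 0.05, against 6.95% of all genes. Of all single probe sets, 1.23% had every TAM array below every OIL array. The summed T lineage markers lay between 14.88 and 15.09 on all arrays. The part of other cells in the results on NFAT genes was not tested. Of the targeted gene, the dimmer probe set read 5.32 ± 0.58 over OIL and 3.26 ± 0.21 over TAM (SD, n = 5, limma adjusted p = 0.0161), and the brighter one differed by -0.12. Whether either probe set overlaps the deleted exons was not determined here. The most alike arrays, labelled F3.1 and F3.2 in OIL, had an SD of 0.19 between them over the 45037 probe sets that were not controls.

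The probe set with the clearest difference below, 1439205_at, is one of several of Nfatc2. The transcripts of this gene start at a pair of sites in RefSeq (assembly GRCm38.p6), 11292 bases apart on the minus strand of chromosome 2. The sequence around each start is shown because the binding core of the family itself can be looked for there. Each runs 5′ to 3′ from 250 bases before the start to 50 after it. Capitals mark the NFAT core GGAAA or its complement TTTCC.
Nfatc2 upstream start, chr2:168601608-168601907, minus strand: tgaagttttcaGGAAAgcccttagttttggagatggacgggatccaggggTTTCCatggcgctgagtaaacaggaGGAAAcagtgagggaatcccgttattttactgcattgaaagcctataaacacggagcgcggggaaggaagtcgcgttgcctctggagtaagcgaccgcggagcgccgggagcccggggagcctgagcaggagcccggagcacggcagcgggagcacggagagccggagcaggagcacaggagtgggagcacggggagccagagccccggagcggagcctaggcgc
Nfatc2 downstream start, chr2:168590316-168590615, minus strand: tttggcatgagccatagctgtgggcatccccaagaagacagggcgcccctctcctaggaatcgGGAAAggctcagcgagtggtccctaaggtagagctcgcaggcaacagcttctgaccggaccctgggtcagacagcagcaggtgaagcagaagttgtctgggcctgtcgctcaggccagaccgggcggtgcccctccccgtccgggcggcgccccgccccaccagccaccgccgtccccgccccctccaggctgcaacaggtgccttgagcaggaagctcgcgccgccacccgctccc

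The upstream window held 3 cores, 2 on the gene's strand and 1 on the other, and the downstream window held 1. The core was searched on both strands with overlaps allowed, and it occurred in 61.3% of the 32851 windows of the same length in the table, so its presence is common. The AP-1 motif TGANTCA, found in 7.81% of windows, was in neither. Of the other family members with an entry, Nfatc4 had 3 cores, Nfat5 had 2, and the windows of Nfatc3 had 1 and 0, with no AP-1 motif in any. A match is a run of letters and not a known site, and which start each Nfatc2 probe set reads was not determined here.

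Across the whole family, no probe set passed in the comparison of TAM with OIL at an adjusted p under 0.05 (limma without a block, Benjamini-Hochberg over all 45037 probe sets, 0 of 23). In the same fit 0.0733% of all probe sets passed, 18 higher and 15 lower in TAM. At an unadjusted p under 0.05 there were 2 members, 1 of Nfatc2 and 1 of Nfatc1, against 9.65% of all probe sets. The median difference of the 23 was -0.03, and 8 of 23 were higher in TAM, against a median of -0.02 and 42.0% higher over all probe sets. With the label as a replicate block, which compares TAM with OIL within each label, those 2 members passed and the others did not, against 1.3% of all probe sets. By their mean over all arrays, 18 of the 23 were above the dim limit. The 5 below it were 1 of 6 for Nfatc2, 1 of 4 for Nfatc4 and 3 of 6 for Nfat5.

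**Figure D1:**
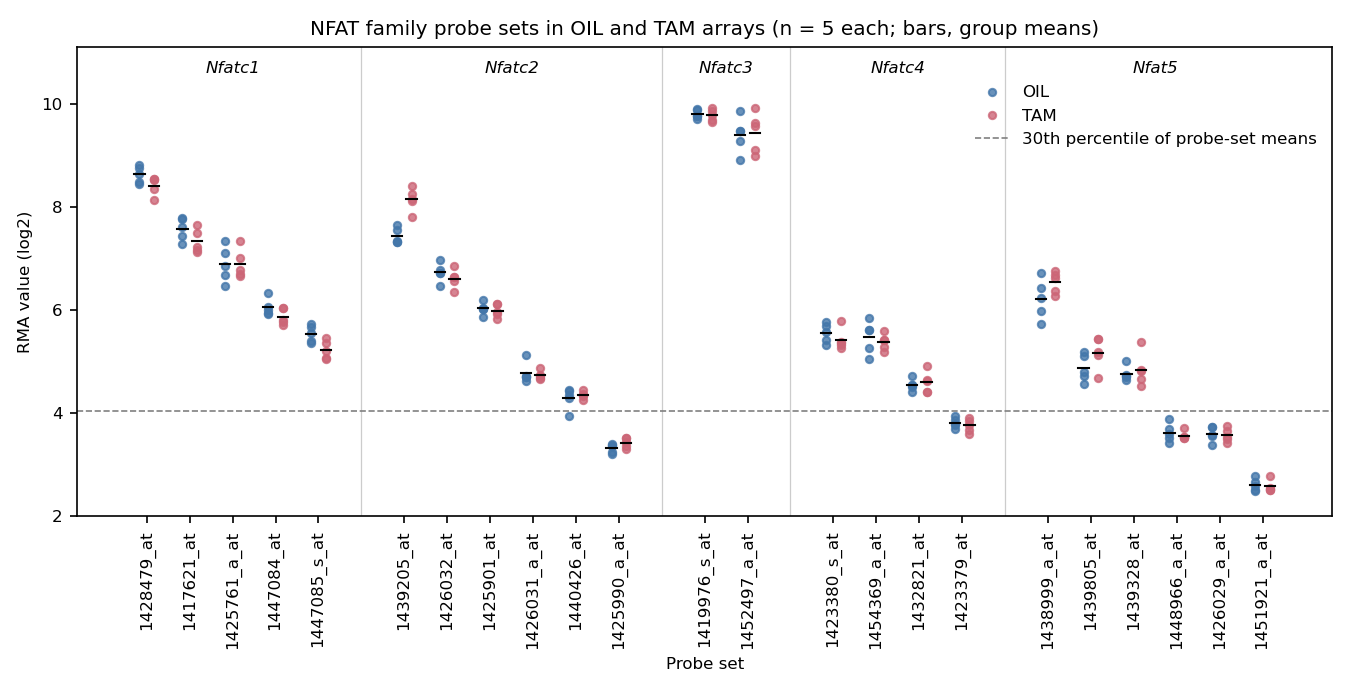
RMA values (log2) of all 23 NFAT probe sets on the 5 OIL and 5 TAM arrays, with short bars at the group means and a dashed line at the dim limit of 4.04. The groups lie apart for Nfatc2 probe set 1439205_at, at 7.31 to 7.64 in OIL and 7.81 to 8.40 in TAM, and overlap for the other 22.

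Nfatc2 encodes NFAT1, the main NFAT protein of resting T cells. Its brightest probe set, 1439205_at, read 7.34 in OIL 204, 7.54 in OIL 206, 7.31 in OIL F3.1, 7.32 in OIL F3.2 and 7.64 in OIL F3. In TAM it read 7.81, 8.16, 8.40, 8.24 and 8.12 in the same order of labels. Every TAM array was above every OIL array, which was also so, in that direction, for 0.83% of all probe sets. No member had every TAM array below every OIL array, against 1.23% of all probe sets. The mean went from 7.43 ± 0.15 to 8.15 ± 0.22 (SD, n = 5), a difference of 0.71 ± 0.11 (SE) or 1.64-fold, with a 95% interval of 0.47 to 0.96. The two-sided exact permutation p was 0.00794, the smallest that 5 against 5 arrays allow. The limma adjusted p was 0.0607 without a block, above the threshold of 0.05, and 0.0250 with the replicate block. Leaving out the TAM 204 array brought the unblocked value to 0.0322, and leaving out any other single array kept it above the threshold, at up to 0.199. The blocked call held without the pair F3.2 (limma adjusted p = 0.0338) and was lost without each of the other pairs, where the adjusted p ran from 0.0575 to 0.0825.

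All 5 labels were higher in TAM, by 0.46 in 204, 0.63 in 206, 1.09 in F3.1, 0.92 in F3.2 and 0.47 in F3. Of all probe sets, 7.23% were higher in all 5 pairs. The labels F3.1 and F3.2 gave the largest differences, and the label F3 one like that of 204. Another limma fit had terms for treatment, label family (204, 206, and the 3 F3 labels as one) and their interaction. In it, the difference between families in the effect of TAM did not pass. Labels 204 and 206 hold a single array per treatment, so the within-family spread comes from the F3 family alone. A difference between families could therefore be missed.

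None of the other 5 probe sets of Nfatc2 passed in either fit, and their differences lay between -0.13 and 0.11. Probe set 1426032_at read 6.77, 6.72, 6.96, 6.72 and 6.47 in OIL and 6.63, 6.55, 6.85, 6.63 and 6.35 in TAM, in the order 204, 206, F3.1, F3.2 and F3. It was lower in all 5 pairs, by 0.09 to 0.17, but the groups overlapped and the difference of -0.13 did not pass (limma adjusted p = 0.757). Probe set 1425901_at differed by -0.05, 1426031_a_at by -0.04 and 1440426_at by 0.06. The dim 1425990_a_at, below the limit at 3.31 in OIL, differed by 0.11. Their 95% intervals all included 0 and none reached above 0.27.

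The disagreement between probe sets of Nfatc2 was measured within each array. Probe set 1439205_at minus the mean of the other 4 above the dim limit averaged 1.98 ± 0.25 over OIL arrays and 2.73 ± 0.18 over TAM arrays (SD, n = 5), a change of 0.75 that was positive in 5 of 5 pairs (two-sided exact permutation p = 0.00794). It was the largest such change among the 18 family probe sets that could be set against another of their gene. The other 4 differed by only -0.04 on average, so the change largely repeats the difference of 0.71 for which 1439205_at stood out. Its pairs, permutation p and rank are therefore not separate support. Fitted with all 18108 such differences on the array, the change did not pass (limma adjusted p = 0.206, and 0.0930 with the replicate block). In that fit 0% of the differences passed with no block used and 0.11% with it, and an unadjusted p under 0.05 was reached by 7.55%. Over the 10 arrays 1439205_at correlated with the other 4 at Pearson r between -0.37 and 0.00, given as a description. With all 6 probe sets averaged, Nfatc2 differed by 0.11 ± 0.06 (SE, limma adjusted p = 0.528 over 18193 genes).

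**Figure D2:**
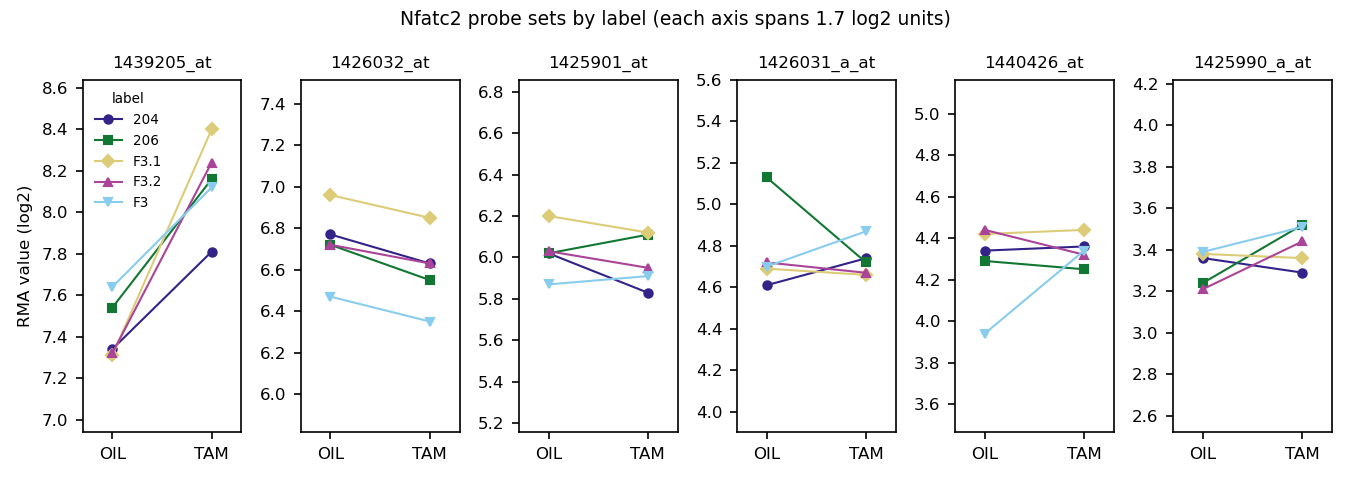
RMA values (log2) of the 6 Nfatc2 probe sets in OIL and TAM, with a line for each label. All 5 lines go up at 1439205_at, by 0.46 to 1.09, and all 5 go down by at most 0.17 at 1426032_at.

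The genes whose values followed 1439205_at most closely over the 10 arrays were Ugcg, which makes glucosylceramide (r = 0.968), the Polycomb protein gene Cbx2 (0.965) and the AP-1 subunit gene Junb (0.957). They were the top 3 of 25942 probe sets searched, so high correlations are partly a matter of the search. Their differences between TAM and OIL were 0.90, 0.58 and 0.53.

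Nfatc1 encodes NFAT2, whose short form is induced in activated T cells by NFAT itself. Its 5 probe sets were level or lower in TAM, and none passed without the block. Probe set 1447085_s_at read 5.40, 5.36, 5.72, 5.66 and 5.55 in OIL and 5.06, 5.04, 5.45, 5.36 and 5.21 in TAM, for 204, 206, F3.1, F3.2 and F3. The groups overlapped, but within labels TAM was lower each time, by a narrow range of 0.27 to 0.34. The mean was 5.54 ± 0.16 over OIL and 5.23 ± 0.18 over TAM (SD, n = 5). TAM minus OIL was -0.31 with a 95% interval of -0.54 to -0.09 (two-sided exact permutation p = 0.0317). The limma adjusted p was 0.363 without a block and 0.0463 with the replicate block, and the blocked call was lost whichever pair was left out (0.0638 to 0.151). Within either group 204 and 206 read lower than the 3 F3 labels.

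The brightest Nfatc1 probe set, 1428479_at, read 8.81, 8.64, 8.48, 8.45 and 8.76 in OIL and 8.52, 8.53, 8.53, 8.34 and 8.13 in TAM. It was lower in 4 of 5 pairs, most in F3 (-0.63), and differed by -0.22 (limma adjusted p = 0.543). Probe sets 1417621_at (-0.25) and 1447084_at (-0.18) were lower in 5 of 5 pairs, with adjusted p of 0.592 and 0.619. Probe set 1447084_at comes from the same sequence entry as 1447085_s_at, so the pair does not count as independent measurements, and both it and 1417621_at correlated with 1447085_s_at at r = 0.91 over the 10 arrays. In all, 4 of the 23 family probe sets were lower in 5 of 5 pairs, 3 of Nfatc1 and 1 of Nfatc2, against 9.47% of all probe sets. The brightest, 1428479_at, correlated only at r = 0.25 with 1417621_at, 0.03 with 1447084_at and 0.19 with 1447085_s_at. The fifth Nfatc1 probe set, 1425761_a_at, was not lower in TAM: it averaged 6.89 in either group. With all 5 averaged, Nfatc1 differed by -0.19 ± 0.07 (SE, limma adjusted p = 0.346 over 18193 genes).

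**Figure D3:**
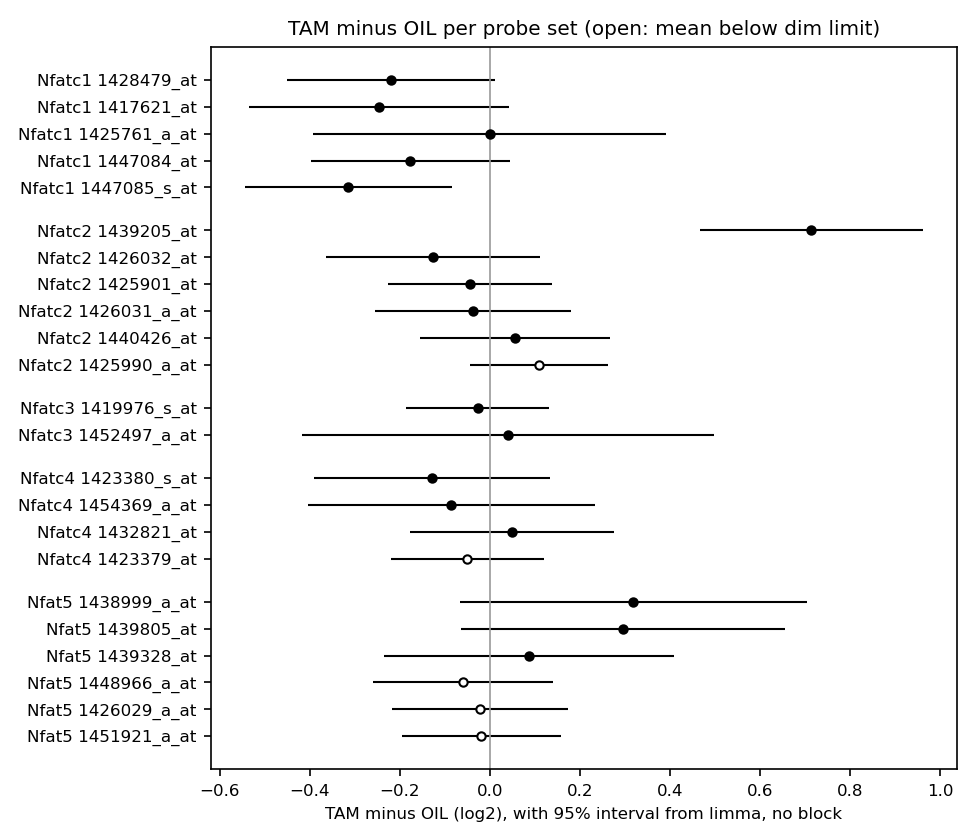
TAM minus OIL (log2) for each of the 23 probe sets with its 95% interval from limma without a block, filled where the mean was above the dim limit of 4.04. The intervals of Nfatc2 1439205_at (0.47 to 0.96) and Nfatc1 1447085_s_at (-0.54 to -0.09) do not include 0, and the other 21 do.

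Nfatc3 encodes NFAT4, which acts in survival and selection of thymocytes. Its probe set 1419976_s_at was close to level, at 9.64 to 9.92 over all 10 arrays, and differed by -0.03 with a 95% interval of -0.19 to 0.13. Its other probe set, 1452497_a_at, read 9.47, 9.47, 9.27, 8.90 and 9.86 in OIL and 9.62, 9.56, 8.98, 9.10 and 9.91 in TAM, for 204, 206, F3.1, F3.2 and F3. TAM and OIL differed by 0.04 with an interval of -0.42 to 0.50, so a shift of up to about that size in either direction was not resolved. Its spread lay between labels more than within them, as described with the labels.

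Nfatc4 encodes NFAT3, which is best known from heart and nervous system. Its brightest probe set, 1423380_s_at, read 5.56, 5.32, 5.68, 5.76 and 5.41 in OIL and 5.36, 5.37, 5.79, 5.26 and 5.31 in TAM. The groups overlapped, and the difference of -0.13 had an interval of -0.39 to 0.13 (limma adjusted p = 0.782). Probe set 1454369_a_at differed by -0.09, 1432821_at by 0.05 and the dim 1423379_at by -0.05. The label F3.2 had the largest drop in both brighter probe sets, at -0.50 and -0.65, while 206 was slightly higher in TAM in both.

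Nfat5 encodes the tonicity-responsive member, which calcineurin does not control through docking. Its 3 probe sets above the dim limit were all higher in TAM on average and none passed. Probe set 1438999_a_at read 6.43, 6.23, 5.98, 5.73 and 6.72 in OIL and 6.61, 6.27, 6.37, 6.75 and 6.68 in TAM, for 204, 206, F3.1, F3.2 and F3. The difference of 0.32 had an interval of -0.07 to 0.70 (limma adjusted p = 0.604), and most of it came from the label F3.2, which was 1.01 higher, with 0.40 in F3.1 and -0.04 to 0.18 in the others. Probe set 1439805_at differed by 0.30, with 0.71 in F3.2, and 1439328_at by 0.09. The 3 dim probe sets, 1448966_a_at, 1426029_a_at and 1451921_a_at, differed by -0.06, -0.02 and -0.02. Averaged over all 6, Nfat5 differed by 0.10 ± 0.08 (SE, limma adjusted p = 0.709 over 18193 genes).

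Levels were then compared between the label families 204 (2 arrays), 206 (2 arrays) and F3 (6 arrays), with treatment as a term. None of the 23 probe sets passed (limma moderated F, adjusted p under 0.05, 0 of 23), against 3.46% of all probe sets. At an unadjusted p under 0.05 there were 3: Nfatc1 1417621_at and 1447085_s_at, and the dim Nfat5 1451921_a_at. That share was near the 13.6% of all probe sets at the same p, so the levels that follow are a description. Probe set 1417621_at averaged 7.28 in 204, 7.22 in 206 and 7.58 ± 0.21 (SD, n = 6) in the F3 family, and 1447085_s_at averaged 5.23, 5.20 and 5.49 ± 0.19. In both, 204 and 206 were within 0.06 of each other and read -0.36 to -0.26 relative to the F3 family. The limma moderated F over the label families gave an adjusted p of 0.204 for 1417621_at and 0.166 for 1447085_s_at. Nfatc2 1439205_at averaged 7.58 in 204, 7.85 in 206 and 7.84 in the F3 family, an order in which no neighbours differed beyond their spread. For an interaction, the within-family spread comes from the F3 family alone, so differences between families could be missed. No member passed for an interaction of treatment with label family (limma, 0 of 23, with 0 at an unadjusted p under 0.05, against 1.65% of all probe sets).

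The labels of the F3 family were also read apart. With each of the 5 labels on its own, a comparison added after the values had been seen, Nfatc3 1452497_a_at passed (limma moderated F, adjusted p = 0.0202), as the only member of 23, against 8.15% of all probe sets. The family's share was no larger than that of all probe sets, so the levels that follow are a description. Probe set 1452497_a_at was highest in the label F3, at 9.86 and 9.91, and lowest in F3.1 and F3.2, at 8.90 to 9.27, with 204 and 206 between them at 9.47 to 9.62. Arrays of one label differed by at most 0.29, while the whole range was 1.01. Nfatc1 1425761_a_at had the same highest label, at 7.34 in OIL F3 and 7.33 in TAM F3, against 6.47 to 7.10 elsewhere (limma adjusted p = 0.117). The Nfatc3 probe set 1419976_s_at showed no such pattern, with label means of 9.68 to 9.87, and correlated with 1452497_a_at at r = -0.05 over the 10 arrays. The beta-actin control, read at its 3′ minus its 5′ end as a sign of RNA quality, moved with these labels. It was 0.34 to 0.36 in F3, 0.40 to 0.43 in 204 and 206, and 0.49 to 0.70 in F3.1 and F3.2. The Gapdh control, read the same way, was 0.21 to 0.33 in F3.1 and F3.2. It did not set F3 (0.06 and -0.03) apart from 204 and 206 (-0.04 to 0.05). The part of RNA quality in the label differences was not tested.

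**Figure D4:**
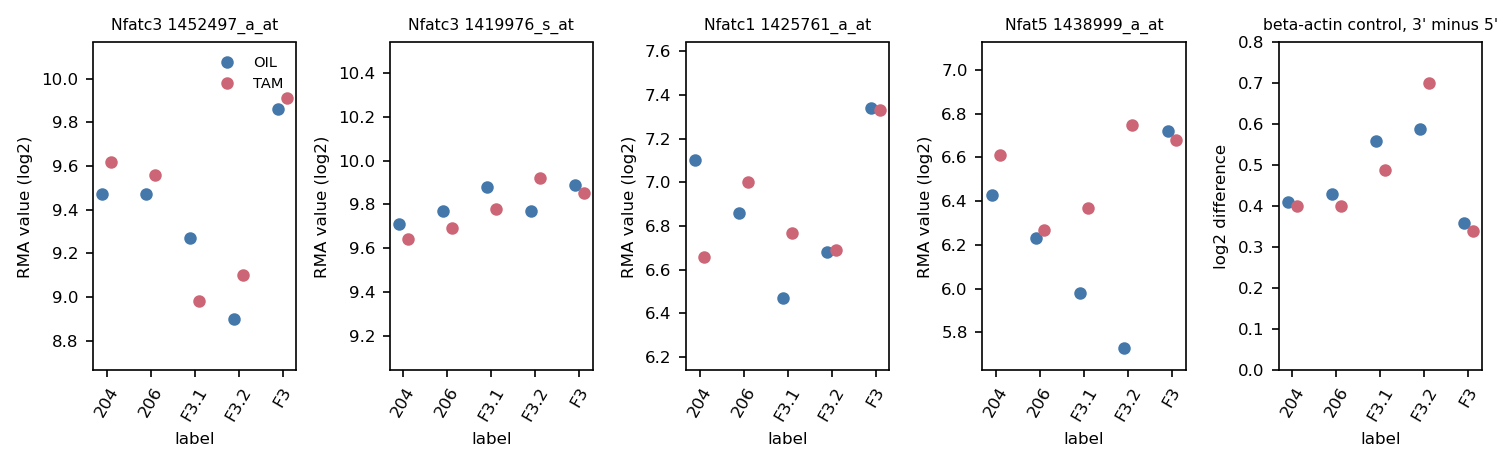
RMA values (log2) by label for 4 probe sets of Nfatc3, Nfatc1 and Nfat5 in OIL and TAM, and the beta-actin 3′ minus 5′ control difference (log2) on the same arrays. Nfatc3 1452497_a_at is highest in F3 (9.86 and 9.91) and lowest in F3.1 and F3.2, where the actin difference is largest (0.49 to 0.70).

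The genes closest in pattern to the brightest probe set of the other members, out of about the same number searched, were Gne, Mgrn1 and Krt23 for Nfatc1 (r = 0.899 to 0.910). They were Atp6ap1, Arhgef11 and Vps33b for Nfatc3 (0.961 to 0.967), and B3galt5, Slc40a1 and Afap1l2 for Nfatc4 (0.957 to 0.980). For Nfat5 they were the anion exchanger gene Slc4a2, Cep95 and the nuclear long RNA Malat1 (0.965 to 0.973), which differed by 0.29, 0.33 and 0.93 between TAM and OIL. These are correlations over the same 10 arrays, which share labels and treatment.

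Genes around the family were read by the brightest probe set of each gene. Among all 18193 genes, 0.115% passed without the block and 1.69% in the blocked fit, and the median difference was -0.04. At an unadjusted p under 0.05, 4.11% of all genes were higher in TAM and 6.95% lower. Upstream, of 11 measured calcineurin subunits and regulators none passed in either fit. The median was -0.06, and 2 of 11 genes, Rcan3 and Rcan2, which was below the dim limit, were lower at an unadjusted p under 0.05, against 6.95% of all genes. The feedback inhibitor genes Rcan1 and Rcan3, whose products bind calcineurin, differed by -0.28 (limma adjusted p = 0.732) and -0.47 (0.466). The brighter Ppp3r1 probe set stood for its gene here. With all probe sets averaged, Ppp3r1 passed at -1.09 (limma adjusted p = 0.0120). Of 13 calcium entry genes none passed in either fit (median -0.05). Before adjustment 1 was higher and 1 lower at p under 0.05, against 4.11% and 6.95% of all genes.

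Of 20 NFAT kinases and export factors none passed without the block (median -0.02). Before adjustment 2 were higher at p under 0.05, Csnk1e and Dyrk2, and 2 lower, Dyrk3 and Prkaca, against 4.11% and 6.95% of all genes. With the replicate block 1 rose, Csnk1e, a casein kinase 1 isoform, by 0.67 (limma adjusted p = 0.0457, and 0.0983 without the block), and its other probe sets differed by 0.08 to 0.53. The DYRK family kinase genes went opposite ways without passing, with Dyrk2 differing by 0.46 (limma adjusted p = 0.350) and Dyrk3 by -0.41 (0.436). Prkaca, the gene of a catalytic subunit of protein kinase A, differed by -0.25 (0.453).

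The list of 36 genes described as NFAT-dependent in T cells was, like the others, drawn up with earlier results of these data known. Dependence on NFAT was not tested here. Of the 36, 1 rose: Nr4a1, an orphan receptor gene induced by antigen receptor signals. It rose by 2.50, from 6.73 ± 0.67 in OIL to 9.22 ± 0.11 in TAM (SD, n = 5, limma adjusted p = 0.00749). None fell, and the list median was 0.00. Before adjustment 4 were higher at p under 0.05, Nr4a1, Egr1, Irf4 and Cd69, against 4.11% of all genes. On the lower side were 3, Pdcd1, Tox and Lag3, against 6.95%. With the replicate block 1 more rose, the lymphoid factor gene Irf4 (0.92, limma adjusted p = 0.00545, against 0.0983 without it). The other Irf4 probe set differed by 0.36. Pdcd1, the gene of the inhibitory receptor PD-1, fell by 1.38 in the blocked fit (limma adjusted p = 0.0476, and 0.193 unblocked), and the exhaustion factor gene Tox by 1.02 (0.0359, and 0.155 unblocked). Of the 36 genes, 11 were below the dim limit in mean. These included Il2 at 3.69 in OIL and 3.56 in TAM, and Ifng at 2.91 and 3.09. These cytokine genes were dim in both groups.

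Of 13 NFAT5 hypertonic response genes none passed without the block (median -0.03). At an unadjusted p under 0.05, 2 were higher and 1 lower, against 4.11% and 6.95% of all genes. The chaperone gene Hspa4l fell by 0.90 with the replicate block (limma adjusted p = 0.0457, and 0.182 unblocked), and its other probe sets differed by -0.80 to -0.60. The amino acid transporter genes Slc38a2 (0.33) and Slc38a1 (0.25) were higher in 5 of 5 pairs without passing (adjusted p = 0.320 and 0.328), and the osmolyte transporter genes Slc5a3 and Slc6a6 differed by 0.12 and -0.16.

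**Figure D5:**
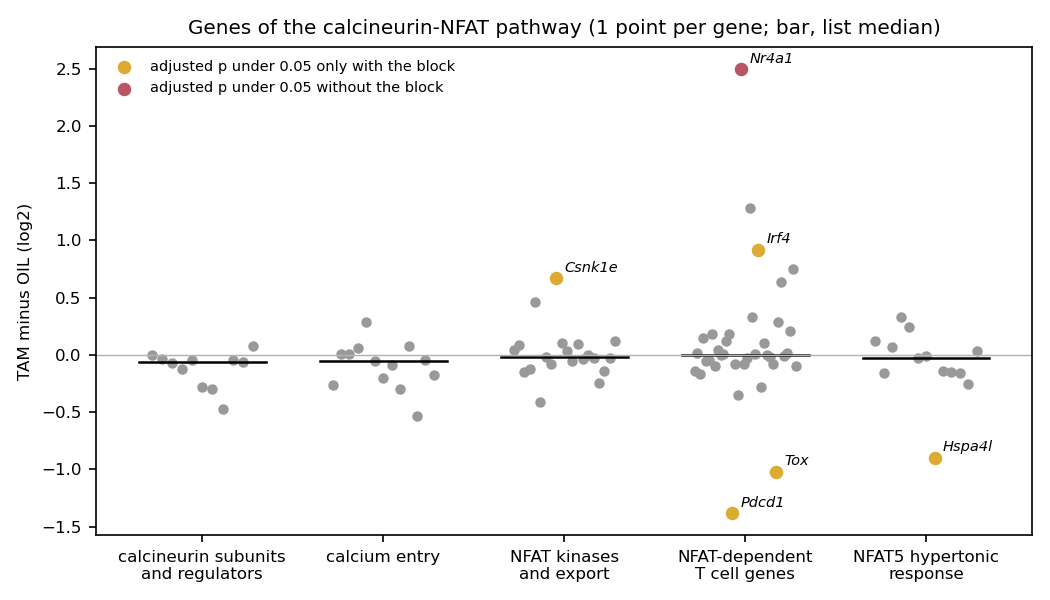
TAM minus OIL (log2) for each measured gene of 5 lists around NFAT, with bars at the list medians and colours for genes that passed without or only with the block. Nr4a1 (2.50) passed without the block, and Csnk1e, Irf4, Pdcd1, Tox and Hspa4l passed only with it.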

How the data were processed

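Leukemic marrow cells, flow-sorted by GFP or a similar marker, gave 200 ng of total RNA per array, per the labels' protocols. The deposited values are log2 values made by the authors with RMA, per the submitters' processing notes, which give no version of it. RMA removes background, equalises array distributions and summarises probes, so shifts shared by all genes are lost before deposit. Array medians lay between 5.07 and 5.13. Arrays have no read depth, and their number limits precision. Of 45101 probe sets, 64 controls were left out, 34945 had 1 gene symbol, 932 several and 9160 none. Each of the 45037 was fitted in R 4.3.3 with limma 3.58.1, with Benjamini-Hochberg adjustment and a threshold of 0.05. No probe set was filtered. The F tests for label families and interaction used the same probe sets.

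The labels of F3.1 and F3.2 were shortened by a final number that differs between groups. Arrays of one label deviated together from their group means, at r = 0.69, 0.69, 0.58, 0.26 and 0.75 for 204, 206, F3.1, F3.2 and F3, all above the limit of 0.1. The OIL array of F3.2 and both TAM arrays of F3.1 and F3.2 matched another label better, so the pairing is least supported there. Members, lists and tests were chosen with earlier results of these data known. Named genes were all members, Ppp3r1, Rcan1, called list genes (up to 4 per direction and list) and the 3 closest patterns per member. Cd2, Rcan2, Rcan3, Dyrk2, Dyrk3, Prkaca, Egr1, Cd69, Lag3, Il2, Ifng and the transporter genes were named after their values were seen. The scripts were tested on simulated data. Alternatives were other blocks, filters, scalings, variance models and probe-set summaries, and leaving out arrays.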

Additional observations from a re-analysis of the deposited data

Results flagged for a closer look

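Single arrays stood apart within their group of 5 in 5 of 46 groups (23 probe sets in OIL and TAM), by a gap to the nearest array over 0.71 of the group's range. Chance flags about 1 in 20 groups, and probe sets of a gene are not independent. OIL 206 was high for Nfatc2 1426031_a_at, at 5.13. TAM F3.1 was high for Nfatc4 1423380_s_at, at 5.79, and for the dim Nfat5 1448966_a_at, at 3.70. OIL F3.2 was high for Nfat5 1439328_at, at 5.0, and TAM 204 for the dim Nfat5 1451921_a_at, at 2.78. No such array was found for Nfatc2 1439205_at, Nfatc1 1447085_s_at or Nfatc3 1452497_a_at.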

How the results depend on the processing

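In the comparison of TAM with OIL, the number of member probe sets called went from 0 to 2 with the label as a fixed replicate block (Nfatc2 1439205_at and Nfatc1 1447085_s_at). It was 1, Nfatc2 1439205_at, with the label as a random replicate block, the label family as a covariate, array weights, the dimmest 50% left out, or the brightest probe set per gene. It was 0 to 1 over the fits that left out an array, with the call made without TAM 204 (0.80, limma adjusted p = 0.0322). At an unadjusted p under 0.05 it was 2. The other alternatives gave 0: the dimmest 30% left out, medians subtracted, a further quantile normalization, trend with robust, the mean per gene, OIL F3.1 and F3.2 averaged, and the block without the pairs F3.1 and F3.2. The difference of Nfatc2 1439205_at stayed positive in the fits of this section that read it. It was 0.52 in that last fit and 0.65 to 0.80 in the others, with a limma adjusted p of 0.0100 to 0.199. These ranges do not cover the blocked fits without a single pair, which are given above and mostly lost the call. Over all probe sets the count of 33 became 584 with the block, 566 with it random, 264 with the block without the pairs F3.1 and F3.2, 196 with label family, 50 with array weights and 13 with OIL F3.1 and F3.2 averaged. It was 13 without OIL F3.1 or without OIL F3.2, 14 without TAM 204, 17 without TAM F3.1 and 18 without OIL 204. Across labels the count of 0 became 1 with each of the 5 labels on its own. The interaction gave 0 under each alternative. The pathway count of 1 became 6 with the replicate block and 2 with the mean per gene. Subtracting medians turned the sign of 1425761_a_at and a further quantile normalization that of 2 dim Nfat5 probe sets, all of them near 0. Probe sets below the dim limit bear little on a change.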
